A study of Rattus norvegicus with 6 samples.

Results

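The Kruppel-like factors (KLFs) are a family of zinc finger proteins that bind GC-rich and CACCC sequences in promoters, where they share sites with the SP factors. Their zinc fingers are much alike, while the rest of the protein differs and decides whether a member recruits activators, the CtBP corepressors or the Sin3 corepressors. Members of the family control growth arrest, cell identity, metabolism and the response of vessels and immune cells to inflammation, and several of them are induced within minutes to hours of a stimulus such as serum, TGF-β or a glucocorticoid.

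The members described here were chosen by gene symbol, as 10 of the 17 KLF genes and of 34156 genes in all in the deposited count table: Klf2, Klf3, Klf4, Klf5, Klf6, Klf7, Klf9, Klf10, Klf13 and Klf15. RNA-seq had been run on rat RA-FLS, in 2 groups with 3 libraries each. These are wild-type fibroblast-like synoviocytes labelled as rheumatoid arthritis and as passage 4. The TNF-α group received 10 ng/mL TNF-α, and the TNF-α+EMO group received the same TNF-α together with 80 μmol/L emodin (EMO), an anthraquinone of rhubarb. All 6 libraries thus carried TNF-α, and untreated cells and EMO without TNF-α are not part of this comparison. The sample labels give day 5 and the study's methods give 24 h as the time of harvest. The labels also give 15% serum in the medium and the methods 10% for the RA-FLS. The methods state 15% serum and passage 4 for MH7A cells, another line of the study, and no passage for the RA-FLS. The differences in time and serum could not be settled here. The study's methods call the 3 libraries of a group biological replicates, without saying how the cultures were set up, and the p-values measure the spread between these libraries.

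The libraries held 16813322 to 17794455 counts on genes. Between the groups, most genes of the table moved, and an adjusted p under 0.05 was reached by 80.9% of the 13614 genes tested (39.4% higher and 41.4% lower with EMO), so each count of called genes below is to be read against these shares. Of 8 tested fibroblast marker genes, 7 were lower and 1 higher with EMO, and their list summed to 200644 to 220756 normalized counts with TNF-α and 35161 to 37832 with EMO. Dcn, the higher one, reached the count filter only through the EMO group, and Lum, a lower one, only through the TNF-α group. Both thus had to differ. Thy1, Pdpn and Prg4, which define synovial fibroblasts, had at most 7 counts in any library. Lymphocyte markers summed to at most 3.07 normalized counts, and the endothelial list, whose cells are rich in Klf2 and Klf4, summed to 70.2 to 76.5 without and 16.3 to 22.7 with EMO. Most of the endothelial sum with TNF-α was Vwf (mean 53.4, against 4.46 with EMO), which reached the count filter only through the TNF-α group. The means of the untested Cdh5 (7.17 and 6.83), Tek (12.4 and 5.12) and Tie1 (0.650 and 3.07) were low in both groups. The macrophage list, most of it Cd14, went from between 1203 and 1307 to between 747 and 818. Of its 3 tested genes only Cd14 was lower (1093 to 510 normalized counts), while Cd68 (153 to 256) and Itgam were higher. Itgam had at most 1 count per library with TNF-α and 10 to 14 with EMO. It thus reached the count filter only through the EMO group and had to differ. Itgax, with as many as 1763 counts, overlaps Itgam on the same strand, and the effect of that overlap was not tested. The epithelial list, nearly all of it Krt8, went from between 9950 and 10812 to between 1968 and 2304. The adipocyte list was low, and went from between 18.5 and 22.4 to between 4.13 and 9.17. The part of these shifts in the KLF values was not tested, and in bulk RNA fewer cells of a type cannot be told apart from less RNA per cell.

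The 10 KLF genes were divided between rises and falls. With EMO, Klf2, Klf4, Klf6, Klf9 and Klf15 were higher and Klf3, Klf5 and Klf7 were lower (edgeR's quasi-likelihood test, adjusted p under 0.05), while Klf10 and Klf13 did not pass. The largest rise was that of Klf15, 5.74-fold, and the largest fall that of Klf5, to 0.206 of its level in the TNF-α group. The 8 called members are 80% of the 10, near the 80.9% of all tested genes. An absolute log2 fold change over 1 as well was reached by 5 members, against 47.3% of all genes, of which 3 were higher (19.5% of all genes) and 2 lower (27.8%). In 9 members the 2 groups did not overlap in normalized counts, against 82.9% of all genes. On the log2 scale the median change was 0.37 over the members and -0.01 over all tested genes. Of the 358 tested genes that the deposited family column names zf-C2H2, 67.3% passed, with a median of 0.09. All 10 members had at least 10 counts in every library, the lowest being 30 for Klf7, so that none was tested through a single group.

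**Figure D1:**
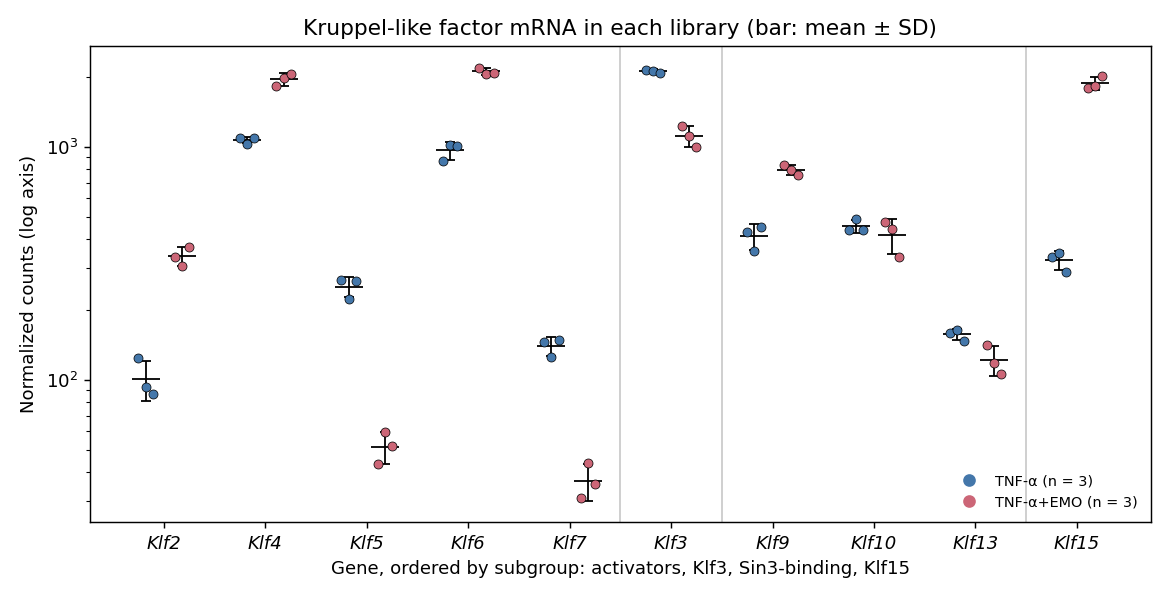
Normalized counts (log axis) of the 10 Kruppel-like factors in each library, blue for TNF-α and red for TNF-α+EMO, with a bar for the mean ± SD of 3 libraries. Red points stand above blue ones for Klf2, Klf4, Klf6, Klf9 and Klf15 and below them for Klf5, Klf7, Klf3 and Klf13, and the groups overlap for Klf10.

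Promoter windows were available in the RefSeq tables for 7 of the 10 members (Klf3, Klf4, Klf5, Klf6, Klf7, Klf9 and Klf15), each reaching from 250 bases before to 50 bases after a start site in the GRCr8 build. The 4 windows printed here, 5′ to 3′ on the gene's strand, belong to the member that rose most, the member that fell most, and Klf6 with its close relative Klf7, which moved in opposite directions. Capitals mark matches to CACCC, to the GC box word CCGCCC and to the CArG consensus (the sequence of serum response factor). Both strands were searched, so a match on the other strand is printed as its reverse complement. The windows lie at chr4:124522765-124523064 (plus strand) for Klf15, chr15:82471831-82472130 (plus strand) for Klf5, chr17:69458429-69458728 (minus strand) for Klf6 and chr9:73020007-73020306 (minus strand) for Klf7.
Klf15: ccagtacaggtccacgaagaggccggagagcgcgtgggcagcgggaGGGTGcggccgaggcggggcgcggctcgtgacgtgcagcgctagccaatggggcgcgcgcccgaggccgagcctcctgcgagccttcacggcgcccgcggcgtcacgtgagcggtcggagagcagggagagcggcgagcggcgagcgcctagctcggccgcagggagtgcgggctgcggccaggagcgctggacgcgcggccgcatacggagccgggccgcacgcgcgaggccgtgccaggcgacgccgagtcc
Klf5: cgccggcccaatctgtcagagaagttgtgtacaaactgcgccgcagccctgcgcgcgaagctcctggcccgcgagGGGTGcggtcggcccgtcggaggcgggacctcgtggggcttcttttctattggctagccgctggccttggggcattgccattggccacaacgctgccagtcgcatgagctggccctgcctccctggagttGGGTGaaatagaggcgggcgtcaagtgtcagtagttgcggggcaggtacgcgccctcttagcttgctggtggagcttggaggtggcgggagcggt
Klf6: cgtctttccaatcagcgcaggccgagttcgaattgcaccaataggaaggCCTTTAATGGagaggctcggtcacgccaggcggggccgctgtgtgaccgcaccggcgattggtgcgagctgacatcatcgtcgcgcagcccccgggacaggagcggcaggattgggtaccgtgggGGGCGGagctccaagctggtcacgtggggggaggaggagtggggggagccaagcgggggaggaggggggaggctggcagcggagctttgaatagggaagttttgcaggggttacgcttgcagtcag
Klf7: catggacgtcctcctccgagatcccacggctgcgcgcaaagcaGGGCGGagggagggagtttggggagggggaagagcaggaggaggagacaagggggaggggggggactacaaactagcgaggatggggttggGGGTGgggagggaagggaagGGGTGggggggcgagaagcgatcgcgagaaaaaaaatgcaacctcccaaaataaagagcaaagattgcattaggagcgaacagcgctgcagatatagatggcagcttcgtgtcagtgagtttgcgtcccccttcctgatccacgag

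The Klf15 window was the richest in G and C of the 7, at 77.3%, above 98.1% of the 33469 windows of full length, and held a single CACCC, 204 bases before the start site. The Klf5 window, 65.3% G and C, held CACCC 175 and 45 bases before its start. The Klf6 window held a match to the CArG consensus 201 bases before the start and a CCGCCC 76 bases before it. The Klf7 window held CACCC at 116 and 96 bases and CCGCCC at 207 bases before the start. Some of these words are common, since CACCC occurred in 54.9% and CCGCCC in 33.1% of all windows, against 1.64% for the CArG consensus. Of the 7 KLF windows, 5 held CACCC, 3 CCGCCC and 1 the CArG consensus. CACCC stood in all 3 fallen members and in 2 of the 4 risen ones that had a window. None of the 7 held TGACGTCA (1.83% of all windows), AGAACA (20.7%), the MEF2 consensus (0.565%) or the kappa-B consensus (7.51%). The start sites used for Klf15, Klf7, Klf4 and Klf3 lie 363, 111, 590 and 8592 bases inside the RefSeq gene span, so other start sites of these genes were not searched.

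Among the members known mainly as activators, Klf2 is the factor that laminar flow induces in endothelium and that keeps T cells quiescent. It was counted 126, 95 and 89 times with TNF-α and 327, 300 and 363 times with EMO. Every EMO library was thus above every TNF-α library, and the 101 ± 19.8 normalized counts of the TNF-α group (SD, n = 3) became 338 ± 31.4 with EMO (n = 3). The log2 fold change was 1.74 (standard error 0.16, adjusted p = 1.5e-06), higher than that of 91.9% of the genes tested.

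Klf4, a factor of growth arrest and of the skin barrier that is also used to reprogram cells to pluripotency, had 1107, 1056 and 1121 counts with TNF-α and 1764, 1927 and 2011 with EMO. The groups were well apart, at 1069 ± 34.3 and 1947 ± 117 normalized counts. Its rise, by 0.86 on the log2 scale with a standard error of 0.07 (adjusted p = 4.3e-07), stayed under the fold change threshold of 1.

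Klf6, which is induced by tissue injury and in activated stellate cells of the liver, was counted 883, 1045 and 1037 times with TNF-α and 2119, 2005 and 2034 times with EMO. All EMO libraries were near one another and above all TNF-α libraries, at 2103 ± 72.2 against 965 ± 85.9 normalized counts. The log2 fold change was 1.12 (standard error 0.08, adjusted p = 1.2e-07), and it was 0.98 without TNF-α replicate 1, the library with the lowest value.

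Klf5, which drives proliferation in intestinal crypts and in smooth muscle, moved the other way. It had 272, 227 and 271 counts with TNF-α and 42, 58 and 51 with EMO. From 251 ± 25.5 normalized counts it went to 51.5 ± 8.02, with the groups far from overlapping. Its log2 fold change, -2.28 with a standard error of 0.17 (adjusted p = 3.0e-07), was lower than that of all but 14.6% of the genes tested.

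Klf7, known from the outgrowth of axons and as a brake on fat cell differentiation, is a close relative of Klf6, yet it fell. It was counted 148, 128 and 152 times with TNF-α and 30, 43 and 35 times with EMO. The groups were apart by more than their spread, at 139 ± 12.7 and 36.9 ± 6.61 normalized counts. The log2 fold change was -1.91 (standard error 0.21, adjusted p = 6.7e-06). A listed clone that overlaps Klf7 on the same strand had 0 counts in every library.

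Klf3, which represses genes by binding CtBP and limits fat cell and erythroid programmes, was the only CtBP-binding member examined here. It had 2183, 2172 and 2129 counts with TNF-α and 1194, 1085 and 982 with EMO. The TNF-α libraries were close together, at 2111 ± 34.2 normalized counts, and the EMO libraries, at 1114 ± 116, spread more widely but lay below all of them. The fall was 0.92 on the log2 scale, with a standard error of 0.08 (adjusted p = 8.5e-07). Its size was near the threshold of 1, with values from -1.03 to -0.83 over 14 alternative settings.

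Klf9, Klf10 and Klf13 repress genes through Sin3. Klf9 is induced by glucocorticoids and thyroid hormone, and it rose. It was counted 440, 364 and 464 times with TNF-α and 806, 779 and 743 times with EMO, or 413 ± 51.2 and 795 ± 37.3 normalized counts. No library of either group reached into the other, and the log2 fold change was 0.95 (standard error 0.10, adjusted p = 5.8e-06).

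Klf10, also called TGF-β-inducible early gene 1, did not pass the threshold. It had 446, 501 and 451 counts with TNF-α and 461, 433 and 330 with EMO. TNF-α+EMO replicate 3 was low, while the other EMO libraries lay among the TNF-α libraries. The group means of 455 ± 29.0 and 418 ± 72.9 normalized counts differed by less than the spread of the EMO group, and the log2 fold change was -0.12 (standard error 0.13, 95% interval -0.40 to 0.16, adjusted p = 0.39). Without TNF-α+EMO replicate 3 it was 0.03 (adjusted p = 0.75), so its negative sign rested on that library.

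Klf13, known as a regulator of the chemokine gene Ccl5 in T cells, had 162, 168 and 151 counts with TNF-α and 137, 115 and 104 with EMO. Every EMO library was lower, at 122 ± 18.0 against 157 ± 8.60 normalized counts, but the difference did not pass the threshold. The log2 fold change was -0.36 (standard error 0.16, 95% interval -0.72 to -0.01, adjusted p = 0.055). Its call lay at the threshold, as the adjusted p was 0.039 without TNF-α replicate 3, 0.024 without TNF-α+EMO replicate 1, 0.14 without TNF-α+EMO replicate 2 and 0.18 without TNF-α+EMO replicate 3. It was 0.048 with DESeq2's size factors and 0.019 with library totals.

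Klf15, a glucocorticoid-induced factor that directs amino acid breakdown and glucose production in liver and muscle, rose more than any other member. It was counted 343, 358 and 298 times with TNF-α and 1731, 1773 and 1968 times with EMO. The lowest EMO library was thus far above the highest TNF-α library, and the means were 325 ± 30.9 and 1868 ± 119 normalized counts. Its log2 fold change, 2.52 with a standard error of 0.09 (adjusted p = 6.9e-10), exceeded that of 96.4% of the genes tested.

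**Figure D2:**
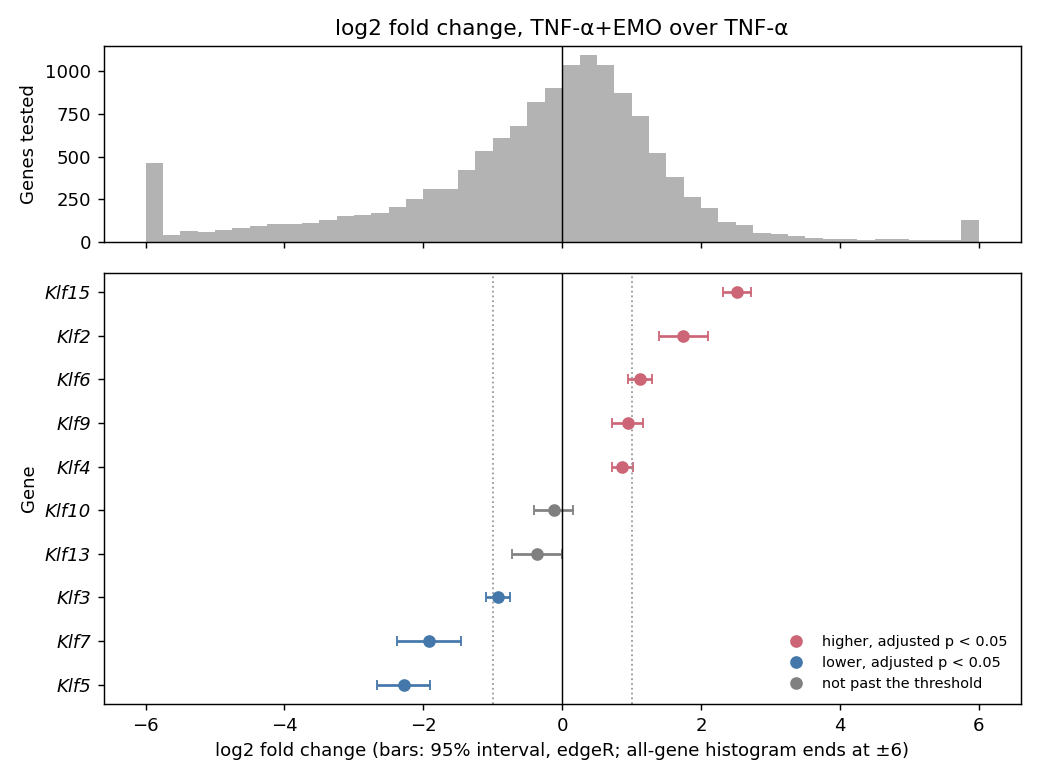
Upper panel, number of all 13614 tested genes by log2 fold change (TNF-α+EMO over TNF-α), with values beyond ±6 placed in the end bins. Lower panel, log2 fold change of each Kruppel-like factor with its 95% interval from edgeR, red for higher, blue for lower and grey for not past the threshold, with dotted lines at ±1. Klf15 stands at 2.52 and Klf5 at -2.28, and the intervals of Klf10 and Klf13 reach to or near 0.

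Ratios of members within a library need no scaling between libraries. The count ratio of Klf6 to Klf7 was 5.97, 8.16 and 6.82 with TNF-α and 70.6, 46.6 and 58.1 with EMO, without overlap. The ratio of Klf4 to Klf5, factors that have opposite roles in growth, was 4.29 ± 0.319 with TNF-α and 38.2 ± 4.51 with EMO (SD, n = 3). The ratio of Klf2 to its relative Klf4 was 0.114, 0.0900 and 0.0794 in the first group and 0.185, 0.156 and 0.181 in the second. Between the Sin3-binding members, the ratio of Klf9 to Klf13 went from 2.65 ± 0.456 to 6.60 ± 0.648. In each of these 4 ratios the groups did not overlap, where 82.9% of all tested genes did not overlap either. Apart from Klf2 to Klf4, each ratio set a member with higher values over one with lower values. Its separation thus followed from the members' own values and adds nothing to them. Other pairs were also computed and are not given. The ratios are given as values without a test, and an exact permutation of 3 against 3 libraries could not give a p below 0.1.

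Levels were compared between genes as length-scaled levels, that is TMM-scaled CPM per kilobase of the deposited gene model. In the TNF-α group the order was Klf4 (26.3 ± 0.844), Klf3 (24.6 ± 0.399), Klf6 (19.7 ± 1.75), Klf13 (15.1 ± 0.831), Klf9 (9.58 ± 1.19), Klf10 (8.85 ± 0.563), Klf15 (7.80 ± 0.742), Klf2 (5.57 ± 1.09), Klf5 (4.28 ± 0.435) and Klf7 (2.53 ± 0.230). Among neighbours in that order, the libraries of Klf9 and Klf10 overlapped. In the TNF-α+EMO group Klf4 (47.9 ± 2.87), Klf15 (44.8 ± 2.86) and Klf6 (42.9 ± 1.47) came first, and neighbours among them overlapped. They were followed by Klf2 (18.6 ± 1.73) and Klf9 (18.5 ± 0.865), which also overlapped, and then by Klf3 (13.0 ± 1.35) and Klf13 (11.8 ± 1.74), which did so too. Klf10 (8.13 ± 1.42) stood alone, and Klf5 (0.880 ± 0.137) and Klf7 (0.669 ± 0.120) overlapped at the end. Klf15 thus moved from rank 7 to rank 2, and its level exceeded that of 40.8% of all tested genes with TNF-α and 81.6% with EMO. The gene models of Klf13 (602 bases) and Klf2 (1056 bases) are short beside those of the others (2366 to 4987 bases), and a short model raises the level for the same counts.

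The summed level of the 10 members was 125, 124 and 124 (TMM-scaled CPM per kilobase) with TNF-α and 209, 204 and 209 with EMO, 1.67-fold higher in the mean. Klf15 made up 6.27% ± 0.585 of this sum with TNF-α and 21.6% ± 1.29 with EMO. The share of Klf3 went from 19.8% ± 0.232 to 6.28% ± 0.650 and that of Klf13 from 12.2% ± 0.653 to 5.68% ± 0.825. Klf4 kept the largest mean share in both groups, 21.1% ± 0.641 and 23.1% ± 1.46. Klf5 and Klf7 were small contributors, at 3.44% and 2.03% with TNF-α and 0.425% and 0.324% with EMO.

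**Figure D3:**
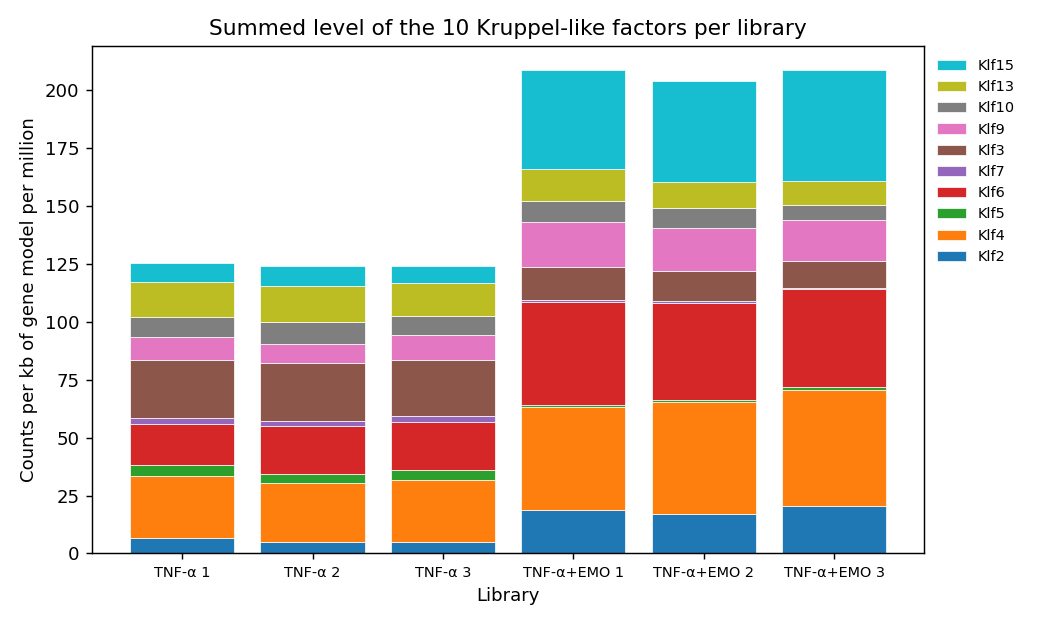
Length-scaled level (TMM-scaled CPM per kilobase of gene model) of the 10 Kruppel-like factors, stacked for each library. The stacks reach 124 to 125 with TNF-α and 204 to 209 with EMO, and the Klf15 segment widens from 6.27% to 21.6% of the stack.

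Of the 16 other SP/KLF genes, 9 had enough counts to test. Among these, 2 rose and 5 fell with EMO. These 7 are 77.8% of the 9, against 80.9% of all tested genes, and Klf1 and Klf12 reached the filter in 1 group only. Klf11, a Sin3-binding relative of Klf10, had 402, 497 and 447 counts with TNF-α and 627, 610 and 540 with EMO, a log2 fold change of 0.47 (adjusted p = 0.0014). Sp4 and Sp3, relatives that bind the same GC boxes, had log2 fold changes of -1.16 (adjusted p = 7.0e-05) and -0.53 (adjusted p = 6.5e-04). Sp1, which many promoters use and which was picked after its values were seen, was at the threshold, with a log2 fold change of -0.21 (adjusted p = 0.035, but 0.15 without TNF-α+EMO replicate 2 and 0.0995 without TNF-α+EMO replicate 3). Klf16 and Sp6 did not pass, although without TNF-α+EMO replicate 3 the adjusted p of Klf16 was 0.0059. Klf8, Klf14, Klf17, Sp5, Sp8 and Sp9 had 0 counts in every library, where 3 counts per library is the limit that a count of 0 allows. This limit covers counting error only.

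CtBP and Sin3 complexes are the corepressors through which KLFs silence genes. Of 7 corepressor genes, 5 were lower and 1 was higher, together 85.7% against 80.9% of all tested genes, and the median on the log2 scale was -0.44. Among the lower ones, Ctbp2, which binds Klf3, had a log2 fold change of -1.02 (adjusted p = 1.1e-07), and Hdac1, the deacetylase of the Sin3 complex, had -1.78 (adjusted p = 5.1e-10). Sin3a fell by 0.44 (adjusted p = 3.8e-04) while Sin3b rose by 1.05 (adjusted p = 1.0e-05). Of 4 ubiquitin ligases that degrade KLF or related proteins, Wwp1 (0.94, adjusted p = 1.1e-05), Siah1 (0.85, adjusted p = 3.6e-05) and Fbxw7 (0.58, adjusted p = 0.0080) were higher and Smurf1 (-1.03, adjusted p = 1.7e-07) was lower. All 4 were thus called, against 80.9% of all tested genes (39.4% higher and 41.4% lower). Wwp1 overlaps a gene on the other strand with up to 269 counts, and Fbxw7 overlaps genes on the other strand with up to 53 counts, so both values are uncertain.

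In the MEK5-ERK5-MEF2 pathway, through which flow induces Klf2 and Klf4, 6 of 7 genes were tested, and 3 were higher and 1 lower, together 66.7% against 80.9% of all tested genes. Map3k2 and Map3k3, the kinases at its start, rose by 0.87 (adjusted p = 7.9e-05) and 0.58 (adjusted p = 4.6e-06). Mef2c, a MEF2 factor, had 514, 479 and 531 counts with TNF-α and 41, 38 and 28 with EMO, a log2 fold change of -3.76 (adjusted p = 1.7e-09), whereas Mef2a rose by 0.31 (adjusted p = 0.0041). Mapk7, which encodes ERK5, had at most 1 count in any library. It overlaps Mfap4 on the other strand, which had 0 counts in every library. Strand use in the counting is not stated, so the low count of Mapk7 is uncertain, and the effect of the overlap was not tested.

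**Figure D4:**
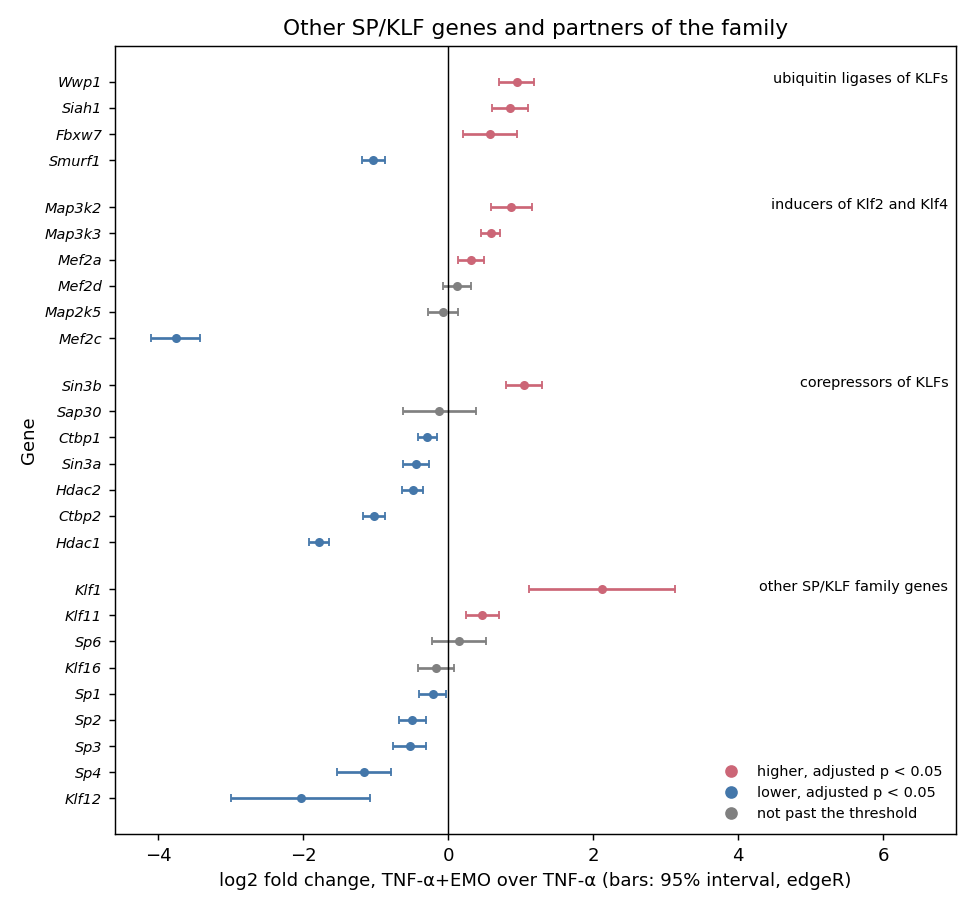
Log2 fold change (TNF-α+EMO over TNF-α, with the 95% interval from edgeR) of the tested genes among the other SP/KLF genes, corepressors, inducers of Klf2 and Klf4, and ubiquitin ligases, red for higher, blue for lower and grey for not past the threshold. Mef2c lies furthest to the left at -3.76 and Klf1, with at most 17 counts per library, furthest to the right at 2.13.

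Genes known from other tissues as targets of single KLFs moved in both directions. Of 10 tested, 3 were higher and 7 lower, against 39.4% higher and 41.4% lower of all tested genes. Nos3, Tagln, Ccl5 and Prodh1, 4 of the 10, reached the filter in 1 group only and so had to differ, which means that the count carries no weight of its own. Cdkn1a, the growth arrest gene that Klf4 and Klf6 activate, had 846, 825 and 849 counts with TNF-α and 10016, 10415 and 13247 with EMO, a log2 fold change of 3.81 (adjusted p = 1.5e-10). Ccnd1, a cyclin that Klf5 activates and Klf4 represses, had a log2 fold change of -4.06 (adjusted p = 3.6e-12). Ccl5 had 3282, 3297 and 2873 counts with TNF-α and 1, 1 and 0 with EMO, at least 1001-fold lower (adjusted p = 3.6e-12), while its regulator Klf13 did not pass. Nos3, a Klf2 target in endothelium, had 2, 3 and 4 counts with TNF-α and 161, 209 and 281 with EMO, and it passed the filter only through the EMO group. It overlaps Atg9b on the other strand, which had up to 879 counts, and strand use in the counting is not stated, so this value is uncertain. Thbd, another endothelial Klf2 target, had 0 counts in every library. Among the remaining tested targets, Pdgfa was higher (log2 fold change 0.72, adjusted p = 1.3e-05). Smad7 (-2.38, adjusted p = 1.3e-08), Eng (-1.42, adjusted p = 1.1e-07) and Bcat2 (-1.37, adjusted p = 2.3e-07) were lower. So were Tagln and Prodh1, which had at most 30 counts in any library. Whether the targets followed the KLFs was not tested.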

How the data were processed

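RNA-seq of 6 rat RA-FLS libraries was used, 3 per group, grouped by the sample titles. Per the study's methods and the submitters' processing notes, reads were quality checked (FastQC, Trimmomatic) and aligned with HISAT2 to Rnor_6.0. The counting program, annotation release and strand setting are not given in the sources used here. The authors deposited raw counts per gene, which were used for all results. The authors also deposited FPKM values, gene lengths (used for levels) and their own comparison, which holds a mean score of scaled counts for each group, its log2 fold change and the p-value before and after adjustment. FPKM and the comparison were used for no result. Deposited coordinates of the members, in that build, were chromosome 16, 19223087 to 19225037 (Klf2), 14, 45142769 to 45165207 (Klf3), 5, 72283313 to 72287669 (Klf4), 15, 83703791 to 83722921 (Klf5), 17, 67887939 to 67945037 (Klf6), 9, 70740480 to 70787913 (Klf7), 1, 240908483 to 240933198 (Klf9), 7, 77156006 to 77162148 (Klf10), 1, 124772596 to 124803363 (Klf13) and 4, 122365093 to 122377659 (Klf15).

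Genes reaching 10 counts in 3 or more libraries were scaled by TMM and tested with edgeR 4.0.16 (R 4.3.3, robust quasi-likelihood fit, group only), with Benjamini-Hochberg adjustment over all 13614 genes. Normalized counts are counts at the mean effective library size. The standard error is the log2 fold change over the square root of F. The alternatives were DESeq2 1.42.0, other scalings, other filters, no robust estimation, a replicate block, an adjusted p under 0.01 and leaving out each library. In simulated counts for this comparison (13405 genes), edgeR recovered 98.9% of 90 genes changed by 1 on the log2 scale, with 4.78% false calls. Beside these only 110 genes were changed, by 2, and all genes shared a common dispersion, whereas 80.9% of the tested genes were called in the data. Scaling and false calls where most genes move were therefore not tested by the simulation. Reads carry no molecular identifiers, so counting limits cover counting error only. The members and lists were chosen with earlier results of these data known. Named genes outside the members were up to 2 per direction and list, with the largest called changes, a mean of 50 or more normalized counts and groups that did not overlap, and named partners of members. Other genes were named outside this rule, among them Fbxw7, Thbd, Sp1, the remaining tested target genes and the cell type markers. Some listed genes were not analysed here.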

Additional observations from a re-analysis of the deposited data

How the results depend on the processing

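Over 14 alternative settings, the 8 called members kept their direction and their call, and 133 of the 140 member values kept their direction and side of the threshold. Klf13 passed in 6 with a negative value, from -0.48 to -0.38 (for example an adjusted p of 0.048 with DESeq2's size factors in edgeR), and Klf10 ranged from -0.22 to 0.034 when a library was left out, turning positive (0.034) without TNF-α+EMO replicate 3. The number of members higher with EMO was 5 under every setting run, the number lower was 3 or 4, and the number with an absolute log2 fold change over 1 as well was 4 to 6. Scaling by library totals moved the median of all genes from -0.01 to -0.12, and relative to that median the members ranged from -2.27 (Klf5) to 2.53 (Klf15). The replicate numbers shared by the groups left no visible pairing in the values. Correlations of same-numbered libraries' deviations ranged from -0.01 to 0.07, and those of differently numbered libraries from -0.07 to 0.05. These values cannot tell whether the cultures were set up in pairs. With the replicate number as a block, 5 members were higher and 3 lower, 5 had an absolute log2 fold change over 1, 7 other SP/KLF genes passed, and no call of a member changed. The depth limits Klf5 and Klf7 most, with 30 to 58 counts per library with EMO. The causes of these shifts were not tested.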

Other observations

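The genes named here were picked after their values were seen. Klf1, the erythroid factor that activates globin genes, was counted at low levels in these cells, with 2, 4 and 5 counts under TNF-α and 14, 17 and 16 with EMO, passing the filter only through the EMO group, and it did not reach the filter when an EMO library was left out. Klf12, a CtBP-binding relative of Klf3, had 27, 41 and 45 counts with TNF-α and 15, 5 and 6 with EMO, passing the filter only through the TNF-α group. Klf8, which also binds CtBP, had 0 counts in every library.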
